A study of Mus musculus with 2 samples.

Results

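The insulin-like growth factor (IGF) system was followed in a mouse glioblastoma stem cell line in which Gli2, a transcription factor at the end of the Hedgehog pathway, had been knocked down. Its members were taken to be 10 genes: the ligands Igf1 and Igf2, the receptors Igf1r and Insr, and the binding proteins Igfbp2, Igfbp3, Igfbp4, Igfbp5, Igfbp6 and Igfbp7. Every non-control probe whose RefSeq accession belongs to one of these genes was used, which gave 14 probes of 56595 on the array, for 10 of 23780 named genes. Igfbp1 and Igf2r are not members and are given with the wider pathway.

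The study holds 2 arrays. One carries RNA of cells stably transduced with a lentivirus encoding a Gli2 shRNA, and the other RNA of the same line with a lentivirus encoding a non-target control shRNA. Both are a single line, started as neurospheres from gliomas that a Sleeping Beauty transposon had induced in mice, and both were kept in serum-free Neurobasal medium with EGF, bFGF and the B27 and N2 supplements. The labels name no shRNA sequence and no separate cultures, and since each group is 1 array, no difference below was tested and no p-value is given.

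IGF1 and IGF2 are secreted peptides that activate the receptor tyrosine kinase IGF1R, and through it the PI3K-Akt and Ras-MAPK pathways. The insulin receptor, encoded by Insr, is its closest relative and forms hybrids with it. The binding proteins hold IGFs outside the cell with high affinity, which can withhold them from the receptor or carry them to it, and proteases that cut the binding proteins set the ligand free. IGFBP7 binds IGFs only weakly. B27 and N2 contain insulin, which at high concentration also activates IGF1R. Igf2 has been described as a Hedgehog-induced gene in mouse medulloblastoma, and Igfbp6 as Hedgehog-responsive in mouse fetal prostate.

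No member passed 2-fold in either direction between the Gli2 shRNA and the control array. Of the 10 members, 7 were well above background on both arrays by the scanner software's own call (Igf1, Igf1r, Insr, Igfbp2, Igfbp3, Igfbp4 and Igfbp5), and 3 on neither array (Igf2, Igfbp6 and Igfbp7). Among all genes measured on both arrays, 3.63% passed 2-fold. The widest differences of the measured members were 1.24-fold higher (Igfbp5) and 1.31-fold lower (Insr) in Gli2 shRNA cells. None of the 7 passed 1.5-fold, which 12.5% of all genes did, and 6.55% of all genes on the lower side. With these shares, 7 genes are too few to call the members steadier than other genes. Each log2 processed signal was scaled by subtracting its array's 75th percentile, which was a signal of 399 for Gli2 shRNA and 329 for control. Differences run Gli2 shRNA minus control. With each array scaled to its median instead, all differences are 0.14 higher, so the sign of a difference between -0.14 and 0 is not settled. The error after ± is the software's modelled error of both spots and covers the spot, not the cultures.

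Gli2 itself had a processed signal of 57.9 on the Gli2 shRNA array, against 98.1 on the control array. Its scaled log2 difference was -1.04 ± 0.22, which left 48.7% of the control level on its only probe. After another background correction, normexp, that difference was -0.64.

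**Figure D1:**
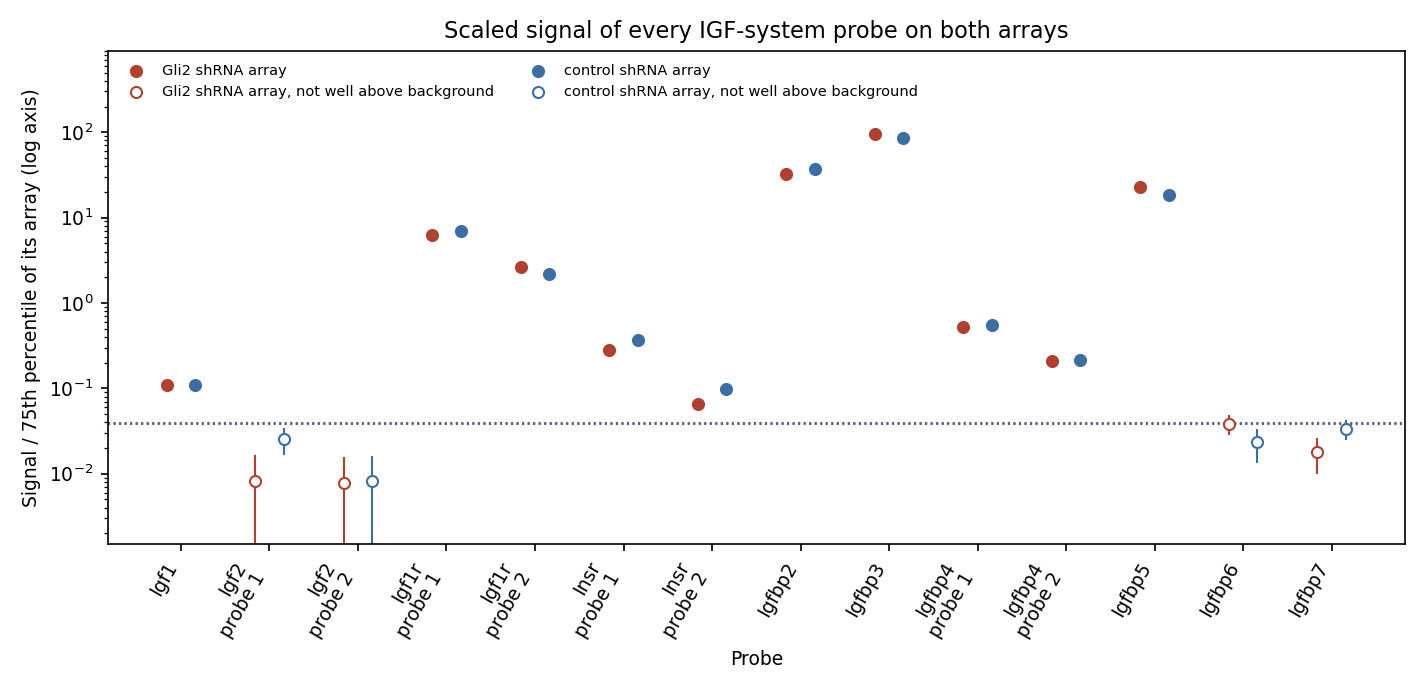
Processed signal divided by the 75th percentile of its array, on a log axis, for each of the 14 probes of the 10 members, with the Gli2 shRNA array (red) left of the control array (blue). Bars are the software's spot error, cut off at the lower edge of the axis, dotted lines are the lowest signal well above background on each array, and open circles are not well above background. The filled pairs stand nearly level, while Igf2, Igfbp6 and Igfbp7 lie at or under the dotted lines. Heights of different probes cannot be set against each other.

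The promoters of the members were read for the letters of a GLI site and of 2 core promoter motifs, also for Igf2, Igfbp6 and Igfbp7, whose RNA was not measured. Windows from 250 bases before to 50 bases after a transcription start were available in RefSeq (GRCm38.p6) for 9 members, in 13 windows, since Igf2 and Igfbp2 have several starts. The GLI consensus GACCACCCA, searched on both strands, was in 0 of these 13 windows and in 0.253% of all 32851 windows. With at most 1 mismatch it was again in 0 of the 13, against 6.74% of all windows. With shares this low, 13 windows are too few to call the absence particular to the members. These letters are thus absent from these windows, which says nothing of more distant sites. The GC box GGGCGG, a site of the Sp1 family, was in 5 of the 13 windows (of Igf1r, Igfbp2, Igfbp7 and Igf2) and in 35.7% of all windows. The letters TATAAA, on either strand, were in 2 of the 13 (Igfbp4 and Igfbp6) and in 13.6% of all windows. No member window held both GGGCGG and TATAAA, so no matches of these motifs overlapped.

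Stretches from 130 bases before the start to base 20 of the transcript are given for the receptor Igf1r and for 2 measured binding proteins, because they show 3 arrangements of these core motifs. All lie on the plus strand, and capitals mark GGGCGG or TATAAA. They cover chr7:67952127-67952276 for Igf1r, chr1:72824350-72824499 for Igfbp2 and chr11:99041114-99041263 for Igfbp4.
Igf1r: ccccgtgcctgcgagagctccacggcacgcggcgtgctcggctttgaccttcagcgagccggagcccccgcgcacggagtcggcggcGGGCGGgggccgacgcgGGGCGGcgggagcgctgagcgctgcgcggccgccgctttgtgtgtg
Igfbp2: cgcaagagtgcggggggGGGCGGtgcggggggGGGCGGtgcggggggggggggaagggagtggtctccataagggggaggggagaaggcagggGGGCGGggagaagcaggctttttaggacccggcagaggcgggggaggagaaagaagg
Igfbp4: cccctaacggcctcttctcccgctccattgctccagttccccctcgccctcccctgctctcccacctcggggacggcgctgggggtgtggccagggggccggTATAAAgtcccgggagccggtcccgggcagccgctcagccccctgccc
In Igf1r the GC boxes begin 43 and 26 bases before the start, in a window of 76.0% G and C with no TATAAA. In Igfbp2 they begin 113, 98 and 37 bases before the start shown. The window of its other start, of 57.3% G and C, held neither GGGCGG nor TATAAA. Igfbp4 has TATAAA 28 bases before the start and no GC box. The median window of all genes had 52.7% G and C.

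Of the ligands, Igf1 was measured at a low signal and was level. Its probe (NM_010512, chromosome 10) gave 43.8 on the Gli2 shRNA array and 36.2 on the control array, and the scaled log2 difference was -0.0008 ± 0.25. The lowest signal that the software called above background was 15.2 for Gli2 shRNA and 12.8 for control. Igf1 had the difference closest to 0 of the 7 measured members in this scaling, and ran from -0.14 to 0.14 over 7 other settings. 99.8% of all measured genes lay at least as far from 0. In the brain Igf1 is made by microglia and some neurons and supports the growth of neural progenitors.

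Igf2, the fetal growth factor and an imprinted gene, was not well above background on either array. Its probes (both NM_010514, chromosome 7) gave signals of 3.31 and 3.14 on the Gli2 shRNA array, against 8.44 and 2.67 on the control array. The raw spot medians were 38.5 and 38.0 against 46.0 and 37.0 on the same arrays, where the local background was 29.0 and 33.0 around the Gli2 shRNA spots and 40.0 and 43.0 around the control spots. At these signals no fold change can be given.

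The receptors were both measured, on 2 probes each. Igf1r (NM_010513, chromosome 7) had a signal of 2510 on the Gli2 shRNA array and 2271 on the control array on its brighter probe, a log2 difference of -0.13 ± 0.20. Its other probe had 1042 and 726 on the same arrays, a difference of 0.24 ± 0.20. The probes thus lay on opposite sides of 0, and their mean was 0.06, so Igf1r has no settled direction.

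Insr (chromosome 8) was the member furthest below 0, and both its probes lay on that side. The brighter probe (NM_001330056) had 112 on the Gli2 shRNA array and 122 on the control array, a scaled log2 difference of -0.39 ± 0.21. The other (NM_010568) had 26.2 and 32.0, a difference of -0.56 ± 0.32. Of all measured genes, 23.4% lay at least as far from 0 as the brighter probe. With normexp the difference of the brighter probe was -0.17, and Igfbp2 (-0.19) then lay further below 0.

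Of the 6 binding proteins, 4 were measured. Igfbp3 (NM_008343, chromosome 11), the main carrier of IGFs in serum, had a signal of 37936 on the Gli2 shRNA array and 28191 on the control array, a log2 difference of 0.15 ± 0.20. Igfbp2 (NM_001310659, chromosome 1), the binding protein often raised in human glioblastoma, had 13028 and 12301, a difference of -0.19 ± 0.20. Both lay within the software error of 0 in this scaling. Igfbp3 lay beyond it with median scaling (0.29), quantile normalization (0.22) and cyclic loess (0.22).

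Igfbp5 (NM_010518, chromosome 1), a binding protein that attaches to extracellular matrix, was the member furthest above 0. It had a signal of 9189 on the Gli2 shRNA array and 6132 on the control array, a log2 difference of 0.31 ± 0.20, or 1.24-fold higher. Of all measured genes, 32.4% lay at least as far from 0. Igfbp5 and Igfbp2 are next to each other on chromosome 1, and in these arrays they lay on opposite sides of 0.

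Igfbp4 (NM_010517, chromosome 11), which holds back IGF action until the protease PAPP-A cuts it, was level on both probes. The brighter probe had 209 on the Gli2 shRNA array and 181 on the control array, a log2 difference of -0.07 ± 0.21. The other had 82.3 and 70.3, a difference of -0.05 ± 0.22.

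Igfbp6 and Igfbp7 were not well above background on either array. Igfbp6 (NM_008344, chromosome 15), which prefers IGF2 over IGF1, had 15.3 on the Gli2 shRNA array and 7.74 on the control array. Igfbp7 (NM_008048, chromosome 5), a secreted protein best known from blood vessels, had 7.17 and 11.1. Their software errors on the log2 scale, 0.73 and 0.76, were close to the differences themselves, and no fold is given.

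**Figure D2:**
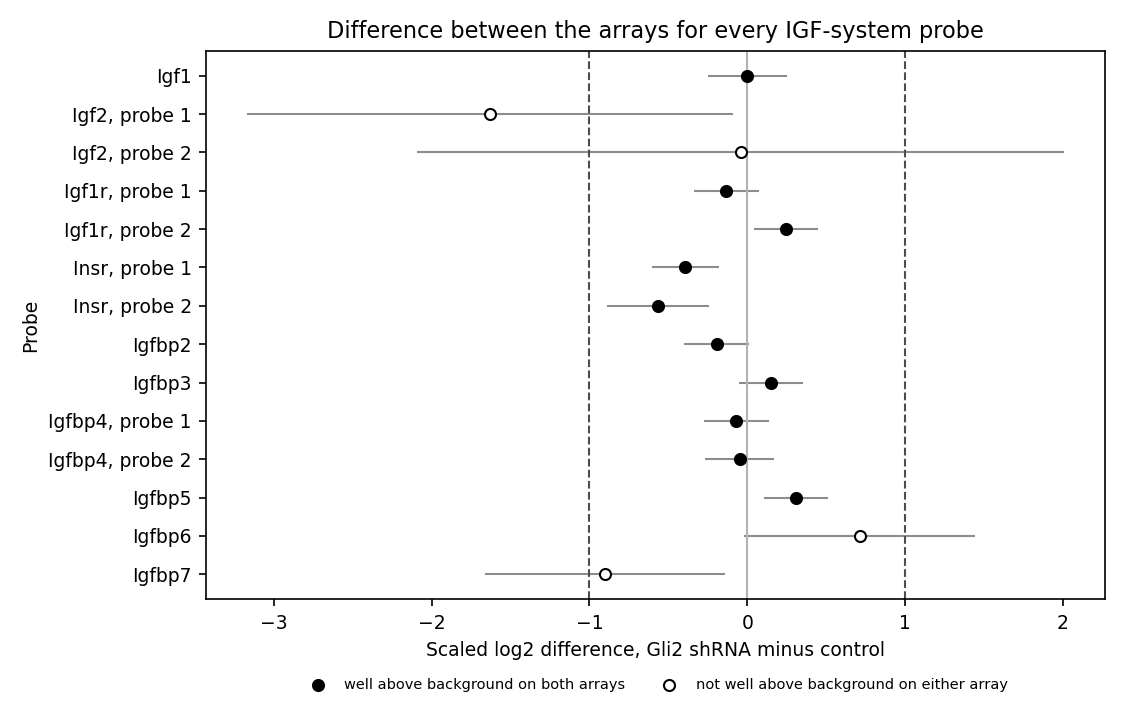
Scaled log2 difference, Gli2 shRNA minus control, for each of the 14 member probes, with the software error as bars and dashed lines at 2-fold. All 10 probes well above background (filled) lie inside the dashed lines, between -0.56 (Insr) and 0.31 (Igfbp5). The open circles of Igf2, Igfbp6 and Igfbp7 are not well above background and have wide errors.

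Over the 7 measured members the median log2 difference was -0.07, against 0.003 over all 14559 genes measured on both arrays. 2 members lay above 0 and 5 below. With each array scaled to its median, the members' median was 0.07 and that of all genes 0.14. The sign of the members' median is thus not settled, and it lay below the median of all genes in both scalings. In this scaling the differences of Insr and Igfbp5 were wider than the software error, and those of the other 5 measured members were within it. With normexp Insr (-0.17) was within it too. Over all genes measured on both arrays the median absolute difference was 0.195 and the median software error 0.204. A difference of about the size of the error was thus ordinary. As a yardstick for probes, 6966 other probes of 5415 genes lay a median of 0.13 from the brightest probe of their gene. The gaps between the Igf1r probes and between the Insr probes were wider than that, and the gap between the Igfbp4 probes was narrower.

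Next to the members on their chromosomes, 22 positions were looked up: the gene on each side of every member, with H19 and Ins2 of the Igf2 locus. 11 of these genes had a probe, 7 were measured on both arrays (Igfbp2 and Igfbp5 as neighbours of each other among them), and 2 passed 2-fold. Among all genes measured on both arrays 3.63% did, and 7 genes are too few to set against that share. Ins2 was looked up as a gene of the Igf2 locus, not as the nearest gene on a side. Ins2, an insulin gene beside Igf2, had 44.3 on the Gli2 shRNA array and 80.8 on the control array, a log2 difference of -1.14 ± 0.24, which was -0.59 with normexp. H19, the imprinted noncoding RNA of the same locus, had 68.2 and 44.9, a difference of 0.33 ± 0.23, which was 0.06 with normexp. Spryd3, beside Igfbp6, was 2.03-fold higher on its brighter probe (2057 and 836) and differed by 0.66 ± 0.22 on the other, and the mean of its probes, 0.84, was short of 2-fold. Igfbp1, a binding protein of the liver beside Igfbp3, had 7.62 and 3.01 and was not well above background on either array. Polr2b, the RNA polymerase II subunit gene beside Igfbp7, differed by 0.08 ± 0.20. Tyms-ps, a pseudogene beside Igf1, differed by -0.39 ± 0.20. Soat2, on the other side of Igfbp6, was measured on the Gli2 shRNA array only (26.3 and 14.1). Tns4 beside Igfbp4 and Gm34648 beside Igfbp7 were measured on neither.

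Other genes govern the supply of IGF ligands. Of 17 genes of ligand control, clearance and binding-protein cleavage, 11 were measured on both arrays, 8 above 0 and 3 below, with a median of 0.09, and 6 on neither array. Ins2 was the one past 2-fold. Igf2bp3, an RNA-binding protein that binds Igf2 mRNA, differed by 0.41 ± 0.20 (9583 on the Gli2 shRNA array and 5957 on the control array), and by 0.40 on its other probe. Igf2r, which takes up and degrades IGF2, had 5037 and 3375, a difference of 0.30 ± 0.20. The stanniocalcin genes Stc1 and Stc2, whose products inhibit PAPP-A, differed by -0.54 ± 0.21 and -0.06 ± 0.21. Pappa, which encodes that protease, and Pappa2 were not well above background on either array.

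Other proteins share the IGFBP domain. Of 13 such genes, 7 were measured on both arrays, 2 above 0 and 5 below, with a median of -0.13. Igfbpl1, a relative of Igfbp7, had 23.2 on the Gli2 shRNA array and 40.6 on the control array, a log2 difference of -1.08 ± 0.32, the one past 2-fold. It was within 2-fold with median scaling (-0.95), quantile normalization (-0.96), cyclic loess (-0.90) and normexp (-0.39). Ccn1, a matrix protein induced by growth factors, differed by -0.58 ± 0.24, Crim1 by -0.29 ± 0.20 and the protease gene Htra3 by -0.13 ± 0.24. Its relative Htra1 differed by 0.26 ± 0.21 and Ccn4, a Wnt-induced matrix protein, by 0.10 ± 0.20.

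Among receptor adaptors and feedback genes, Socs2 was furthest from 0. SOCS2 is a feedback inhibitor best known for damping growth hormone signalling, and it can bind IGF1R. On its brighter probe (NM_007706, chromosome 10) the signal was 854 on the Gli2 shRNA array and 1940 on the control array, a log2 difference of -1.46 ± 0.20, or 2.75-fold lower. Its other probe had 343 and 815, a difference of -1.53 ± 0.20. In all 8 other settings its difference stayed past 2-fold, between -1.49 and -1.33. Those that only change the filter on dim probes could not move it, and the deposited values hardly could. It was -1.33 with median scaling, -1.36 with normexp and -1.49 as the mean of its probes. It was the 1 gene past 2-fold of 18 measured in this list, of which 11 lay above 0 and 7 below, with a median of 0.10.

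The insulin receptor substrates, which carry the signal from IGF1R and INSR, were within 2-fold. Irs1 differed by 0.22 ± 0.20 (3568 on the Gli2 shRNA array and 2537 on the control array) and Irs2 by -0.22 ± 0.20. Irs4, at a low signal (37.6 and 53.5), differed by -0.79 ± 0.26. The docking protein gene Gab1 (-0.59 ± 0.21) and the feedback inhibitor Socs3 (-0.60 ± 0.20) lay further below 0 than the adaptor Shc1 (0.26 ± 0.20) and the phosphatase Ptpn11 (0.24 ± 0.20) above it. On their other probes Shc1 differed by 0.03 and Ptpn11 by 0.28.

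In the PI3K, Akt and mTOR relay, 26 of 27 genes were measured on both arrays, 12 above 0 and 14 below, with a median of -0.01. The kinases Akt1 and Akt2, which relay PI3K signals, differed by 0.16 ± 0.20 and -0.34 ± 0.20, and the 3 Akt2 probes ran from -0.43 to -0.34.

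Pik3cd, the PI3K catalytic subunit of leukocytes, was the 1 gene past 2-fold of these 26, at 1.24 ± 0.35. It had 53.3 on the Gli2 shRNA array and 18.7 on the control array, not far above the lowest signal called. A second measured probe differed by 0.14 and normexp gave 0.18 for the first, so whether it passes 2-fold depends on the probe and the background correction. Pik3r3, a regulatory subunit, differed by -0.57 ± 0.20. Pik3r2, another regulatory subunit, had a brighter probe at 0.28 ± 0.20 and a dimmer one at -0.39 ± 0.25, so its direction is not settled. Pdpk1, the kinase that activates Akt, differed by 0.37 ± 0.20, the S6 kinase gene Rps6kb2 by 0.37 ± 0.21 and Deptor, an mTOR inhibitor, by -0.32 ± 0.23.

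FoxO factors, which Akt holds out of the nucleus, and genes they induce lay on both sides of 0. Of 22 genes, 17 were measured on both arrays, 10 above 0 and 7 below, with a median of 0.12. Foxo1 (NM_019739, chromosome 3) had 727 on the Gli2 shRNA array and 1214 on the control array, a log2 difference of -1.02 ± 0.20, and its other probe gave -1.01. It was just past 2-fold, and short of it with median scaling (-0.88) and normexp (-0.93). Bcl6, a transcriptional repressor, had 20.3 and 39.6, a difference of -1.24 ± 0.33 (-0.64 with normexp). Fbxo32, the muscle atrophy ubiquitin ligase also called atrogin-1, had 287 and 115, a difference of 1.05 ± 0.21 (0.82 with normexp).

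The other FoxO-list genes furthest from 0 were within 2-fold. Sesn1, a stress-induced inhibitor of mTOR, differed by 0.44 ± 0.20, Txnip, an inhibitor of thioredoxin, by 0.34 ± 0.20 and by 0.75 on its other probe, and Gadd45a by 0.27 ± 0.20. Trib1 (-0.54 ± 0.20), the mitochondrial superoxide dismutase Sod2 (-0.36 ± 0.20) and Sesn3 (-0.29 ± 0.20) lay below 0.

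**Figure D3:**
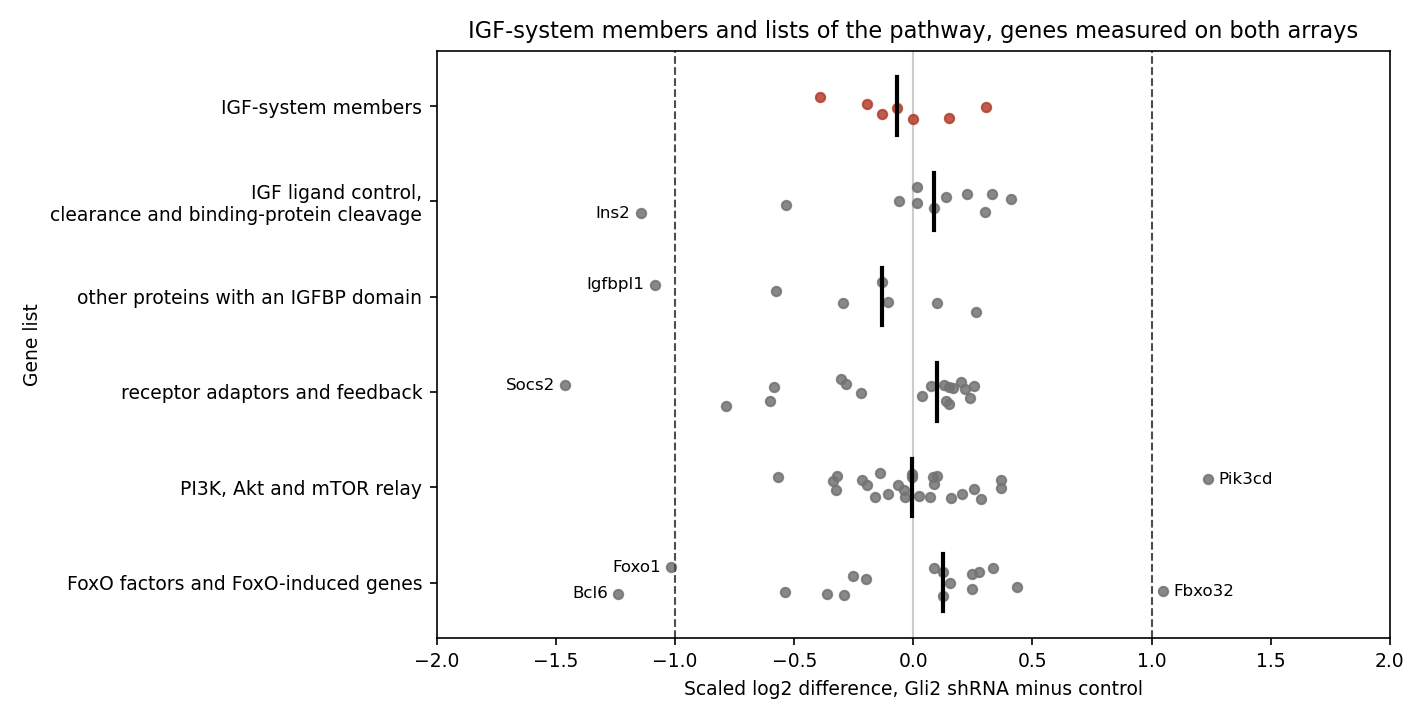
Scaled log2 difference, Gli2 shRNA minus control, of the IGF-system members (red) and of 5 lists of the pathway (grey), 1 point per gene measured on both arrays, with black bars at each list's median and dashed lines at 2-fold. No member lies outside the dashed lines. Ins2, Igfbpl1, Socs2, Foxo1 and Bcl6 lie to the left and Pik3cd and Fbxo32 to the right. Of these Socs2 stayed outside in all 8 other settings, some of which could not move its value.

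Over all genes, 268 were higher and 260 lower by 2-fold in Gli2 shRNA cells, 1.84% and 1.79% of the 14559 measured on both arrays. Of 12 neural and glioblastoma stem cell markers, 10 were measured on both arrays, including Sox2, Nes, Olig2 and Vim, while Nr2e1 was measured on the control array only and Prom1 on the Gli2 shRNA array only. Of 10 microglial markers, 5 were measured on both arrays (Csf1r, Tyrobp, Itgam, C1qb and Cd68), all 5 below 0 with a median log2 difference of -0.13. Csf1r (-0.13), Itgam (-0.07), Cd68 (-0.07) and this median have no settled sign, since median scaling makes all differences 0.14 higher. Aif1 and P2ry12 were measured on the control array only, and Cx3cr1, Ptprc and C1qa on neither. Of 8 endothelial markers, Emcn (0.74 ± 0.20), Kdr (-0.48 ± 0.22) and Pecam1 (-0.04 ± 0.26) were measured on both arrays, and Cdh5, Tek, Cldn5, Flt1 and Vwf on neither. Of 8 mural markers, Anpep (1.01 ± 0.23, past 2-fold), Acta2 (-0.19 ± 0.20) and Des (-0.28 ± 0.37) were measured on both arrays, Myh11 on the control array only, and Pdgfrb, Rgs5, Kcnj8 and Abcc9 on neither. Astrocyte markers (6 of 8 measured on both arrays) had 0 above 0 and 6 below, with a median of -0.33. Oligodendrocyte lineage markers (6 of 8) had 2 above and 4 below, with a median of -0.37. Neuron markers (7 of 8) had 3 above and 4 below, with a median of -0.03. Fibroblast and meningeal markers (4 of 8) had 3 above and 1 below, with a median of 0.25. Signs between -0.14 and 0 are again not settled. The part of other cell types in the members' values was not tested. In bulk RNA, fewer cells of a type and less RNA per cell cannot be told apart.

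**Figure D4:**
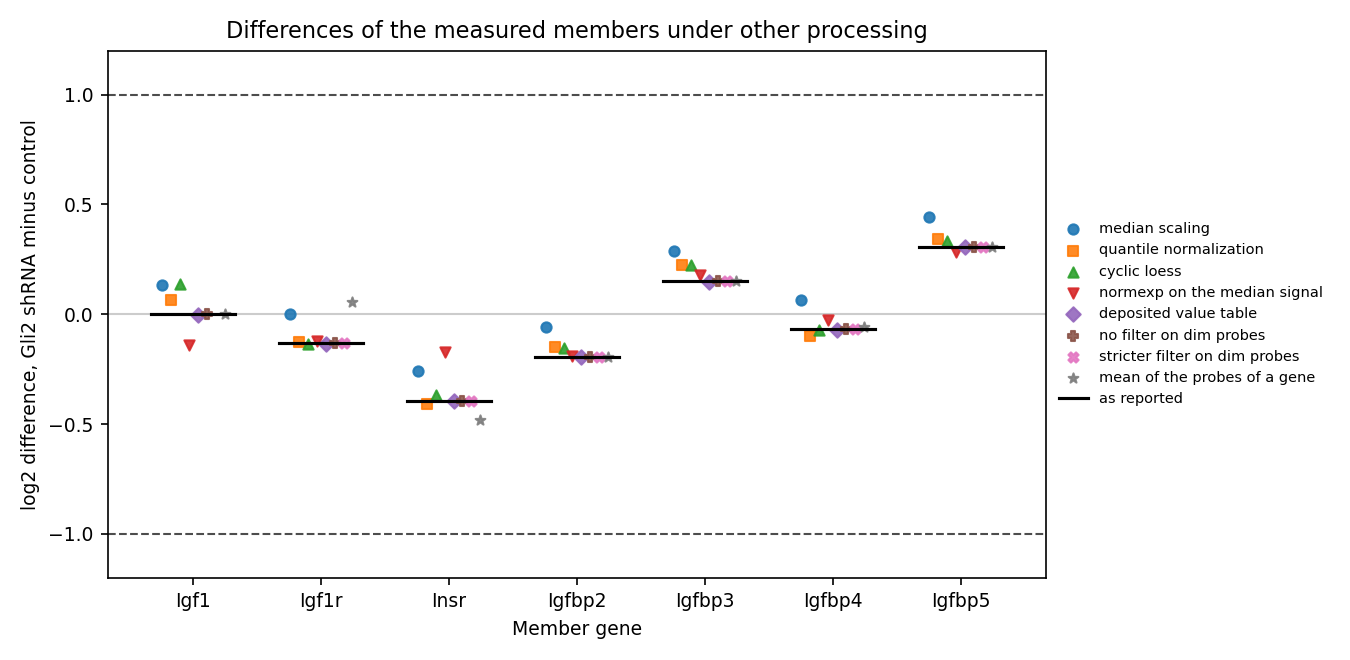
The log2 difference, Gli2 shRNA minus control, of the 7 measured members under 8 other settings (symbols), with the reported value as a black bar and dashed lines at 2-fold. Every symbol lies between -0.48 and 0.44. Insr and Igfbp2 stay below 0 and Igfbp3 and Igfbp5 above it, while Igf1, Igf1r and Igfbp4 cross 0 in at least 1 setting.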

How the data were processed

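Cy3-labelled cRNA of each RNA sample was hybridised to a 1-colour array, per the labels. Per the file headers, the deposited scanner files hold background-subtracted processed intensity, its modelled error, median and background intensity and flags, from Agilent Feature Extraction 12.1.0.3 (grid build mm9). The authors' deposited value table is on a log2 scale and equals the log2 processed intensity minus 1 constant per array (8.64 for Gli2 shRNA, 8.36 for control), which puts the 75th percentile at 0. Its column medians are -3.69 for Gli2 shRNA and -3.55 for control.

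Non-uniform and outlier spots were left out (120 on the Gli2 shRNA array, 126 on the control array). No spot was saturated. Spots of a probe were averaged on the log2 scale and each array's 75th percentile over 56595 non-control probes was subtracted. Probes were named by unversioned RefSeq accession through the GRCm38.p6 gene table (34555 named, 22040 not). The brightest probe stood for a gene. Well above background were 57.1% of probes on the Gli2 shRNA array and 59.5% on the control array. Both arrays measured 14559 of the named genes, the Gli2 shRNA array alone 476, the control array alone 931 and neither array 7814. A gene measured on 1 array was called past 2-fold only by a lower bound, with its dim side set to the lowest signal well above background or its own value, whichever was higher. By that bound 148 genes were at least 2-fold higher (10.5% of such genes) and 169 at least 2-fold lower (12.0%), and none of these was in the pathway lists.

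The members and lists were chosen with earlier results of these data known. The genes named are the members, Gli2, list genes past 2-fold with the 3 furthest on each side of 0 below that size, and chromosomal neighbours. 2 genes of the PI3K, Akt and mTOR list are not reported here and are left out of its counts and its plot. A few further list genes (Irs2, Akt1, Pappa and Pappa2) were added as relatives of these. Marker genes were named after their values were seen. Alternatives used limma 3.58.1 in R 4.3.3. The arrays shared a slide and a scan. Differences between the cultures or their extraction cannot be told apart from the shRNA, and the number of arrays limits the precision.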

Additional observations from a re-analysis of the deposited data

How the results depend on the processing

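No paired analysis was possible because each group holds 1 array and the result comes from no test. No measured member passed 2-fold in any of the 8 other settings. Of 55 member values, 54 moved by less than the software error, the exception being Insr with normexp (-0.17). Many of the 55 could not move. The filter settings leave the value of a gene as it is, and the mean of probes does so for a gene with 1 probe. The deposited table differs only by a constant per array. The count is thus no measure of how robust the values are. Without the filter on dim probes, 1 member was past 2-fold lower: Igf2, whose signals are not well above background. The median of the members was 0.07 (0.0664) with median scaling, where that of all genes was 0.14. Normexp used the median signal, because the planned mean signal is not a column of the files; it was chosen after seeing the data.

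Over all genes, the counts higher and lower were 67 and 100 with normexp, 769 and 2075 without the filter, 150 and 147 with the stricter filter (a signal of at least 50 on both arrays), and 874 and 953 at 1.5-fold. Higher genes made up 50.8% of the calls, against 68.6% with median scaling (384 and 176), 40.1% with normexp and 27.0% without the filter. In the list of ligand control the count past 2-fold was 0 with normexp, 0 with the stricter filter and 3 without the filter. For IGFBP-domain genes it was 0 with median scaling, quantile normalization, cyclic loess, normexp and the stricter filter. For adaptors and feedback it was 2 without the filter and 4 at 1.5-fold. For the PI3K relay it was 0 with normexp, the stricter filter and the mean of probes. For FoxO genes it was 0 with normexp and 5 without the filter. Of 305 values of other named genes, 294 moved by less than the software error and none changed sign among those past 2-fold. Here too, many values could not move, for the same reasons. The stricter filter drops dim genes by construction; for the other settings the cause was not tested. Signal over background limits Igf2, Igfbp6 and Igfbp7.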
